A study of Mus musculus with 9 samples.

Results

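The 47 genes described here are the transcriptional feedback and immediate-early arm of mitogen-activated protein kinase (MAPK) signalling, out of 55487 genes in the count table. They were chosen by name: all protein-coding genes called Dusp, Spry or Spred with a number, together with Fos, Fosb, Fosl1, Fosl2, Jun, Junb, Jund, Egr1, Egr2, Egr3, Ier2, Ier3, Atf3, Myc, Etv4 and Etv5. By family they were 24 dual-specificity phosphatases, 4 Sprouty and 3 Spred proteins, 4 FOS, 3 JUN and 3 EGR factors, 2 PEA3 factors, and 4 other immediate-early genes (Ier2, Ier3, Atf3 and Myc). RNA came from MCEC, an established line of mouse cardiac endothelial cells, and poly-A RNA-seq gave 9 libraries. Of these, 3 were wild-type (WT), 3 carried a Zbtb46 knockdown (KD) and 3 an enforced Zbtb46 overexpression (OE). Zbtb46 encodes a zinc finger transcription factor with a BTB domain. The labels do not state how knockdown or overexpression was achieved or whether either line was 1 clone, and a control-vector line was not analysed here. They also do not say whether libraries of a group came from separate cultures, so p-values measure only the spread between these samples, which may be technical.

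When a growth factor or a stress activates a MAPK cascade, the kinases ERK, JNK and p38 phosphorylate factors that are already present, and genes such as Fos, Jun and Egr1 are transcribed within minutes without new protein synthesis. Several products of this response then act back on the cascade: MAPK phosphatases of the DUSP family remove the activating phosphates, and Sprouty and Spred proteins restrain signalling between receptor, RAS and RAF. In endothelial cells the ERK branch carries signals from receptors for vascular endothelial and fibroblast growth factors. RNA levels of these genes are often read as a record of recent pathway activity, but kinase activity itself was not measured here.

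Levels are library-scaled read counts (CPM, with TMM factors), given by library in the order replicate 1, 2 and 3, and a change was called at an adjusted p under 0.05. The 9 libraries held 39491828 to 55745849 counts, of which the 47 genes took 0.117% to 0.1402%. Zbtb46 was at 13.3, 14.4 and 13.2 CPM in WT, 11.7, 11.4 and 10.6 CPM in KD, and 192, 188 and 194 CPM in OE. All 3 KD libraries lay below WT, by a log2 fold change of only -0.28 ± 0.05 (SE; edgeR's quasi-likelihood test, Benjamini-Hochberg adjustment, adjusted p = 0.00144), while OE lay far above. A poly-A library cannot say how much Zbtb46 protein the KD cells kept. Of 15 endothelial markers, 8 stayed under 1 CPM in every library, among them Pecam1, Cdh5, Tie1 and Cldn5, and Erg had 0 counts in all 9. Eng, Mcam and Flt1 were present at 124, 30.8 and 17.2 CPM in WT, and Egfl7, Kdr and Tek at 5.18, 2.64 and 1.83 CPM. Of 8 genes typical of fibroblasts, 4 stayed under 1 CPM in every library (Lum, Postn, Tcf21 and Col1a2), while Col1a1 was at 5256 CPM, Dcn at 98, Thy1 at 32.4 and Pdgfra at 17.1 CPM in WT. Their summed level, nearly all of it Col1a1, ran from 5136 to 5710 CPM among WT libraries, from 4882 to 4945 for KD and from 4057 to 4151 for OE. The endothelial label was thus not borne out by several of its defining markers, among them Pecam1, Cdh5 and Erg, while others were expressed. The libraries are called here by their label MCEC. Of 7 tested endothelial markers, 0 were called higher and 5 lower in KD (71.4%, beside 21.3% of all genes tested). In OE, 1 was called higher and 4 lower (71.4%, beside 36.4%). Of 5 tested fibroblast markers, 1 was called higher and 1 lower in KD (40%, beside 21.3%). In OE, 0 were called higher and 5 lower (100%, beside 36.4%), among them Col1a2 at under 1 CPM. In OE against KD, 0 were called higher and 4 lower (80%, beside 41.5%). Dcn fell by a log2 fold change of -1.42 ± 0.06 in OE against WT (adjusted p = 1.76e-14 by edgeR's quasi-likelihood test). Of 5 tested smooth muscle markers, 1 was called lower in KD and 1 in OE (20% each). It was Acta2 each time, at 7.73, 2.80 and 1.75 CPM on average in WT, KD and OE. The part that these marker differences play in the results on the 47 genes was not tested. In bulk RNA, fewer cells expressing a gene and less RNA per cell cannot be told apart.

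Promoter sequence of a few members is shown first, because many immediate-early genes share short elements near the start site: the cyclic AMP response element (CRE), bound by CREB and ATF factors, and the CArG box, bound by serum response factor. RefSeq start sites on GRCm38.p6 were matched for 33 of the 47 members (41 windows), and the 250 bases upstream of each start were searched on both strands. The other members, among them Dusp9, Fosl1, Etv4, Ier2 and Myc, had no matched start site and were not searched. The CRE core TGACG occurred in 14 of 41 member windows (34.1%), and in 17.77% of all 32851 windows. The 12 members with it were Atf3, Dusp1, Dusp5, Dusp8, Dusp11, Dusp16, Dusp23, Egr2, Fos, Fosb, Junb and Spred2. The full palindrome TGACGTCA, which contains the core on each strand, occurred in 2 member windows (4.9%, Dusp1 and Dusp8) and in 1.55% of all. A CArG box occurred in 5 member windows (12.2%), all from Dusp5 and Egr2 (2 of the 33 matched members), and in 1.47% of all windows. Boxes further upstream than 250 bases were not searched for, in Fos or any other member. The AP-1 element TGACTCA occurred in 1 member window (2.4%, Dusp13) and in 4.46% of all. Such matches are descriptions of letters, and binding was not measured.

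The 150 bases ending at the start site are printed for 3 CRE-core genes called lower in KD (Fosb, Junb and Dusp1), for Fos, which fell just short of a call, for Dusp8, which carries the palindrome at 2 places and was called higher in KD, and for Dusp5, whose level was nearly flat. Capitals mark the CRE core or palindrome on either strand, except in Dusp5, where they mark 2 adjoining CArG boxes. Dusp5 also holds the CRE core on the other strand, downstream of these boxes and left in lower case. Of the CRE-core members not printed, Dusp23, Egr2 and Spred2 were also called lower in KD, and Atf3, Dusp11 and Dusp16 had no KD call. The windows are chr12:85473740-85473889 (plus strand), chr7:19310046-19310195 (minus strand), chr8:84978749-84978898 (minus strand), chr17:26508473-26508622 (minus strand), chr7:142095285-142095434 (minus strand) and chr19:53528995-53529144 (plus strand).
Fos: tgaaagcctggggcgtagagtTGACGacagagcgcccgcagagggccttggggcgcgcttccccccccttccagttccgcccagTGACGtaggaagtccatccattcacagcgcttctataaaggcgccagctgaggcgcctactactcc
Fosb: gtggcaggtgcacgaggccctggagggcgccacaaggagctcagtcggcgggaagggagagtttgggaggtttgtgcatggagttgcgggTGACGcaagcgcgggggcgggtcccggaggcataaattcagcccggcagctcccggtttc
Junb: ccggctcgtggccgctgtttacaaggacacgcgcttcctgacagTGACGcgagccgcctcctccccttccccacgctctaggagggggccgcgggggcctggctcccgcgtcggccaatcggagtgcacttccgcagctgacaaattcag
Dusp1: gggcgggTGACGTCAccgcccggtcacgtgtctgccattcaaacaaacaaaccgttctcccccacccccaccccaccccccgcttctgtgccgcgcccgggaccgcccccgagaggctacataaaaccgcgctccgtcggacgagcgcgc
Dusp8: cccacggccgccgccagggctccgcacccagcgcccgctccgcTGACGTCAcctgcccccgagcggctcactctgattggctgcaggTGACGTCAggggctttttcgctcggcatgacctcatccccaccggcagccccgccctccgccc
Dusp5: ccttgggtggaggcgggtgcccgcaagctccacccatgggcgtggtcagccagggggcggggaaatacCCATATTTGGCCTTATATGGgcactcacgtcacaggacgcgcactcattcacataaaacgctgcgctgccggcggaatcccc

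Of the 47 genes, 43 passed the filter on low counts and were tested; Dusp2, Dusp15, Dusp21 and Dusp26 did not. In KD against WT, 21 of the 43 were called (48.8%), 7 higher and 14 lower, beside 21.3% of all 16955 genes tested (11.0% higher and 10.4% lower). In OE against WT, 20 were called (46.5%), 12 higher and 8 lower, beside 36.4% of all genes (17.0% higher and 19.5% lower). In OE against KD, 25 were called (58.1%), 16 higher and 9 lower, beside 41.5% of all genes (19.4% higher and 22.1% lower). The median log2 fold change of the 43 was -0.16, -0.01 and 0.16 in these comparisons, and that of all genes tested was 0.00, 0.00 and 0.01. At least 1 comparison called 32 members, and 11 were called in none. The library ranges of the 2 groups compared did not overlap for 28, 25 and 31 of the 43, in the same order. Over all genes tested this held for 34.67%, 45.13% and 55.36%, so non-overlap alone does not mark out a gene. The split of the OE calls depended on single libraries: it was 12 higher and 4 lower without OE replicate 1, 10 and 11 without OE replicate 2, and 11 and 3 without OE replicate 3. The comparisons share their libraries in pairs, so their calls are not independent of each other.

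The members did not move as a block. Against WT, 5 genes were called lower in KD and higher in OE (Dusp9, Etv4, Fosl1, Jund and Spred2), and 3 were called higher in KD and lower in OE (Dusp8, Dusp14 and Fosl2). A further 6 genes were called lower in KD, showed no call between OE and WT, and were higher in OE than in KD: Egr1, Ier2, Jun, Junb, Dusp4 and Dusp23. Fosb and Dusp1 were called lower in both KD and OE, and Myc and Spred1 higher in both. Many changes were small: 7 of the 21 KD calls, 8 of the 20 OE calls and 13 of the 25 calls between OE and KD reached 1.5-fold.

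**Figure D1:**
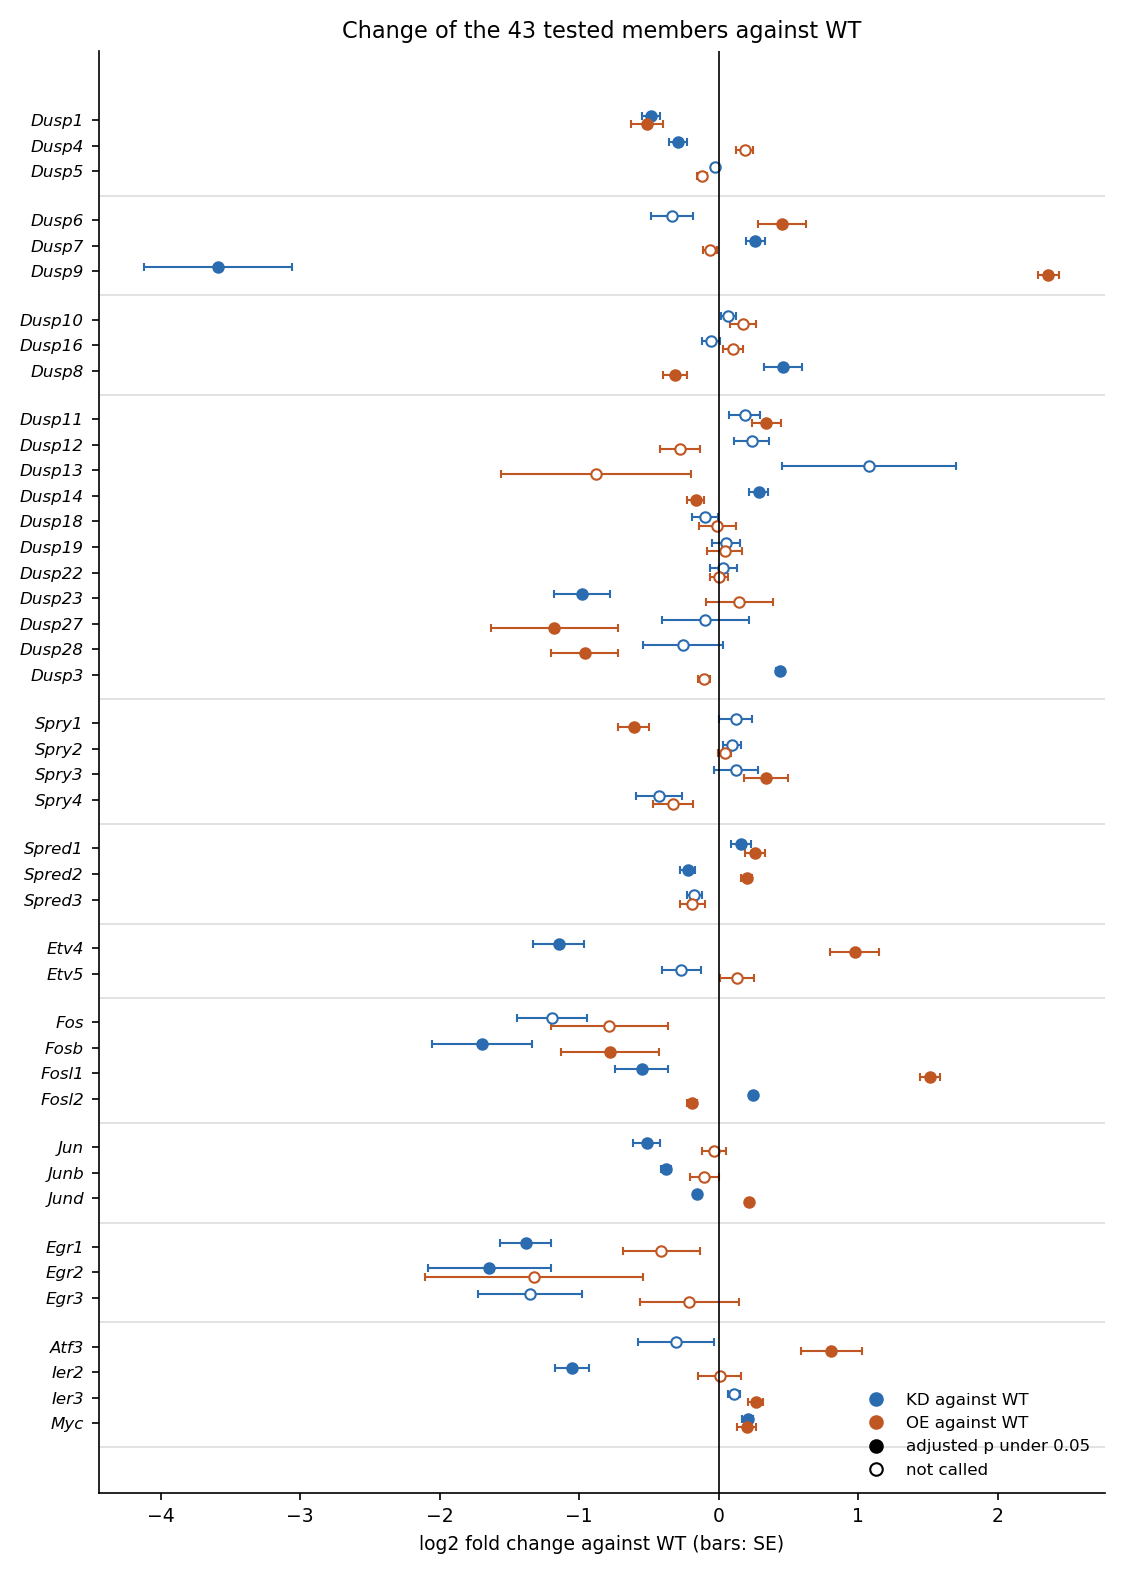
Log2 fold change against WT (x axis) of the 43 tested members (y axis, grouped by family), in KD (blue) and OE (orange), with SE bars; filled points had an adjusted p under 0.05 and open points did not. Dusp9 stands apart at -3.59 in KD and 2.36 in OE, while most other members lie within 1 log2 unit of 0.

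Among the phosphatases that act on ERK in the cytoplasm, Dusp9 changed most of all members. Dusp9 encodes MKP-4, lies on the X chromosome (73639419 to 73643514, GENCODE M21 on GRCm38) and was at 1.61, 1.75 and 1.92 CPM in WT. It was at 0.040, 0.201 and 0.205 CPM in KD, which is 2, 8 and 10 counts, and at 9.29, 9.10 and 8.84 CPM in OE. The 3 groups did not overlap, and the highest KD library lay far below the lowest WT library. The log2 fold change was -3.59 ± 0.53 in KD (12.0-fold lower; adjusted p = 2.37e-08) and 2.36 ± 0.08 in OE (5.14-fold higher; adjusted p = 1.18e-09), by edgeR's quasi-likelihood test, Benjamini-Hochberg adjustment. Its KD value rests on few counts, and over 18 other ways of fitting or leaving out a library it ran from -3.95 to -3.10.

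Dusp6, or MKP-3, the phosphatase best known as an ERK-induced brake on ERK, changed in the same directions but less. Its levels were 8.83, 11.5 and 9.03 CPM in WT, 7.64, 7.0 and 8.72 CPM in KD, and 13.0, 15.6 and 11.8 CPM in OE. All OE libraries were above all WT libraries, and the KD libraries lay just below WT without overlap. Its log2 fold change reached 0.45 ± 0.17 in OE (adjusted p = 0.00628, edgeR's quasi-likelihood test) and -0.33 ± 0.15 in KD (adjusted p = 0.0675, not called), and OE exceeded KD by 0.79 ± 0.15 (adjusted p = 3.23e-05). Without OE replicate 2, the highest library, the OE call was lost (adjusted p = 0.0591).

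Dusp7, the third enzyme of this class, went the other way: 14.2 ± 0.43 CPM in WT (SD, n = 3), 17.0 ± 1.29 in KD and 13.6 ± 0.68 in OE. It was called higher in KD (log2 fold change 0.26 ± 0.07, adjusted p = 0.0248 by edgeR) and not in OE (-0.06 ± 0.05, adjusted p = 0.605). The KD call was lost under 4 of 19 alternatives (highest adjusted p = 0.146). The composition of the class therefore differed by group. Measured per kilobase of exon, Dusp9 made up 8.08% ± 0.71 of the summed level of the 3 genes in WT, 0.72% ± 0.46 in KD and 28.6% ± 1.49 in OE. Dusp7 made up 53.0%, 66.7% and 34.8%. The sum itself was 8.01 ± 0.52 CPM per kilobase in WT, 7.62 ± 0.66 in KD and 11.7 ± 0.62 in OE, and only for OE did all 3 libraries lie outside the WT range.

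The nuclear, inducible MAPK phosphatases were lower in KD where they changed. Dusp1 (MKP-1), an immediate-early gene that dephosphorylates p38, JNK and ERK, was at 50.0, 56.9 and 50.2 CPM in WT, 37.5, 38.2 and 36.8 CPM in KD, and 37.5, 40.5 and 32.3 CPM in OE. Every KD and OE library lay below every WT library, and the KD and OE ranges overlapped. Its log2 fold change was -0.48 ± 0.06 in KD and -0.51 ± 0.11 in OE (adjusted p = 6.68e-05 and 1.24e-05, edgeR's quasi-likelihood test). The annotated Dusp1 gene overlaps Ergic1 on the other strand by 640 bases and a pair of unnamed loci on its own strand, and whether counting used strand is not given in the sources used here. Ergic1 itself averaged 251, 260 and 199 CPM in WT, KD and OE.

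Dusp4 (MKP-2) was at 18.0, 20.3 and 19 CPM in WT, 14.9, 16.4 and 15.7 CPM in KD, and 21.4, 22.6 and 21.1 CPM in OE, 3 ranges without overlap. It was called lower in KD (log2 fold change -0.29 ± 0.07, adjusted p = 0.00708 by edgeR) and just missed a call in OE (0.19 ± 0.06, adjusted p = 0.053). Without KD replicate 1 the KD call was lost (adjusted p = 0.0507). Dusp5, an ERK-specific nuclear phosphatase with the CArG boxes printed above, had the highest CPM of this class over all 9 libraries, though Dusp1 was higher in WT. Its level was 45.1 ± 0.58 CPM in WT (SD, n = 3), 44.3 ± 0.71 in KD and 41.6 ± 1.66 in OE, with no call in any comparison. Dusp2 had 0 counts in all WT and KD libraries and 4, 2 and 2 counts in OE, too few to test.

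Of the phosphatases that prefer JNK and p38, only Dusp8 was called against WT. Dusp8 was at 11.0, 12.8 and 11.1 CPM in WT, 15.4, 14.2 and 18.6 CPM in KD, and 8.99, 9.99 and 9.20 CPM in OE. The KD libraries were highest, the OE libraries lowest, and no ranges overlapped. Dusp8 changed by a log2 value of 0.46 ± 0.13 in KD, -0.31 ± 0.09 in OE and -0.78 ± 0.12 between OE and KD (adjusted p = 0.00218, 0.0221 and 2.58e-06, edgeR's quasi-likelihood test). The OE call against WT was lost without WT replicate 2, OE replicate 1 or OE replicate 3 (highest adjusted p = 0.0928). Dusp16, the most abundant of the 3 in CPM, was at 39.0 ± 2.90 in WT, 37.5 ± 0.75 in KD and 41.9 ± 1.73 in OE. It was called only between OE and KD, at an adjusted p of 0.0426 that 9 of 19 alternatives did not keep. Dusp10 was at 4.03, 4.23 and 4.56 CPM on average in WT, KD and OE, with no call.

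The 14 remaining dual-specificity phosphatases are a mixed group, many of them small enzymes without a MAPK-binding domain, and they did not share a direction. Of the 11 tested, 2 were called higher and 1 lower in KD (27.3%, beside 21.3% of all genes tested). In OE, 1 was called higher and 3 lower (36.4%, beside 36.4%). In OE against KD, 1 was called higher and 5 lower (54.5%, beside 41.5%). Dusp3 (VHR), which can act on ERK and JNK, gave the clearest rise in KD: 75.7, 78.5 and 75.2 CPM in WT, 102, 105 and 104 CPM in KD, and 67.6, 73.6 and 72.2 CPM in OE. Its KD libraries lay well above all others, with a log2 fold change of 0.44 ± 0.02 (adjusted p = 6.79e-07, edgeR's quasi-likelihood test). Dusp3 overlaps Cfap97d1 on the opposite strand over 2735 bases. Dusp14 followed the pattern of Dusp8 at a smaller scale, with a mean of 32.8 ± 2.32 CPM for WT, 39.996 ± 1.25 for KD and 29.2 ± 0.58 for OE. Its OE call against WT (adjusted p = 0.0407) was lost under 8 of 19 alternatives.

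Dusp23, a small phosphatase with few known substrates, was at 1.05, 0.756 and 1.21 CPM in WT, 0.476, 0.552 and 0.491 CPM in KD, and 0.916, 1.09 and 1.31 CPM in OE. The KD libraries were the lowest without overlap, and WT and OE overlapped. Its log2 fold change was -0.98 ± 0.20 in KD (adjusted p = 0.0268 by edgeR), a call lost under 6 of 19 alternatives, and 1.12 ± 0.16 between OE and KD (adjusted p = 0.0051). Dusp28 was at 1.32, 0.873 and 1.48 CPM in WT, 0.913, 0.829 and 1.29 CPM in KD, and 0.682, 0.646 and 0.533 CPM in OE. All OE libraries were below all others, by -0.96 ± 0.24 against WT (adjusted p = 0.0158 by edgeR), a call that was lost without WT replicate 3 or OE replicate 3 (highest adjusted p = 0.07).

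Dusp11, which acts on the triphosphate end of RNA rather than on MAPKs, was the most abundant of the group in CPM. It was at 105 ± 12.8 CPM in WT, 120 ± 5.06 in KD and 134 ± 3.50 in OE, and was called in OE (log2 fold change 0.34 ± 0.11, adjusted p = 0.000878 by edgeR). Dusp27 was called lower in OE at levels under 1 CPM in every library (log2 fold change -1.18 ± 0.46, adjusted p = 0.0355), a call that 6 of the 18 alternatives that tested it did not keep. Dusp12 and Dusp13 were called only between OE and KD, with changes of -0.51 ± 0.11 and -1.96 ± 0.39. Dusp13 rests on 2 to 16 counts a library, and 7 of the 17 alternatives that tested it lost its call. Dusp18, Dusp19 and Dusp22 had no call in any comparison; the level of Dusp18, for instance, averaged 5.91, 5.52 and 5.87 CPM in WT, KD and OE, although genes around it on chromosome 11 were lower in OE by a median of -0.52. Dusp21 had 0 counts in all 9 libraries, and Dusp15 and Dusp26 had at most 11 and 6 counts.

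**Figure D2:**
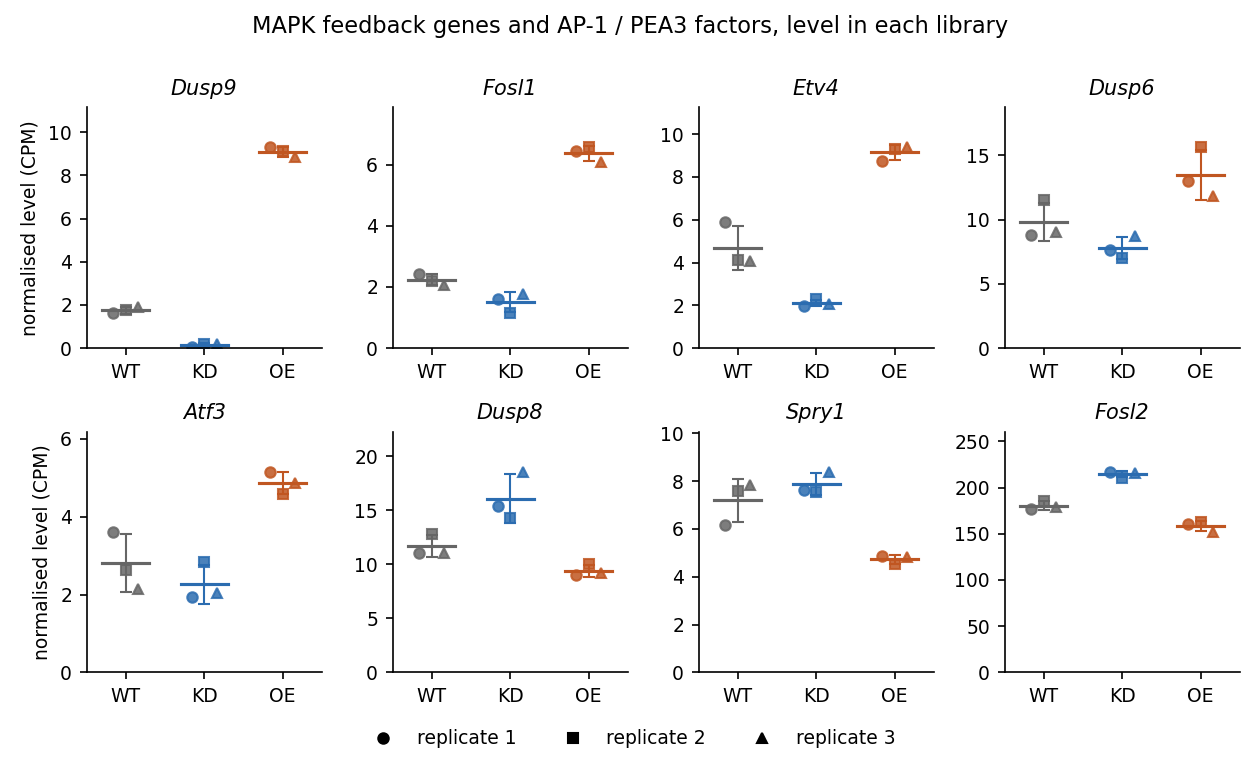
Level in CPM (y axis) in each library of WT, KD and OE (x axis) for 8 genes; symbols give the replicate, horizontal lines the mean and bars the SD over 3 libraries. Dusp9, Fosl1 and Etv4 rise from KD through WT to OE without overlap, and Dusp8 and Fosl2 show the opposite order.

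The Sprouty genes, feedback inhibitors of receptor tyrosine kinase signalling to ERK, had no call in KD. Spry1 was at 6.17, 7.59 and 7.85 CPM in WT, 7.64, 7.56 and 8.40 CPM in KD, and 4.86, 4.52 and 4.82 CPM in OE. Its OE libraries were the lowest, and WT and KD overlapped. Spry1 differed from WT by a log2 fold change of -0.61 ± 0.11 in OE (adjusted p = 0.000407, edgeR's quasi-likelihood test) and 0.12 ± 0.12 in KD (adjusted p = 0.524). Spry2, the most abundant of the 4, differed by less than the spread between libraries, at 15.5 ± 0.47 CPM in WT, 16.6 ± 1.21 in KD and 15.9 ± 0.77 in OE. Spry3 was called higher in OE (0.34 ± 0.16, adjusted p = 0.0259), which 5 of 19 alternatives did not keep. Spry4 was at 4.63 ± 0.69 CPM in WT, 3.45 ± 0.40 in KD and 3.70 ± 0.29 in OE. Its KD and OE libraries lay below WT, though the highest OE library (3.866 CPM) was barely under the lowest WT library (3.869 CPM). Neither change was called (adjusted p = 0.0533 and 0.103 by edgeR).

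The Spred genes, which hold back RAS through neurofibromin, changed by small amounts and in unlike ways. Spred2 was at 63.1, 67.8 and 64.3 CPM in WT, 53.5, 54.7 and 59.1 CPM in KD, and 76.7, 72.6 and 75.2 CPM in OE. The 3 groups did not overlap, with a log2 fold change of -0.22 ± 0.05 in KD and 0.20 ± 0.04 in OE (adjusted p = 0.0035 and 0.00383, edgeR's quasi-likelihood test). The OE call was lost when libraries were scaled by their totals alone (adjusted p = 0.161). Genes around Spred2 were low in OE: the median log2 fold change of all tested genes in its 20 Mb window of chromosome 11 was -0.52 against WT, and after subtracting such medians Spred2 stood at 0.70. Spred1 was higher in OE (0.26 ± 0.07, adjusted p = 0.000922). Its KD call (0.16 ± 0.07, adjusted p = 0.0497) was lost under 13 of 19 alternatives. Spred3 had no call.

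PEA3 factors are ETS proteins that carry growth factor signals from ERK to transcription, and Etv4 ranked among the largest changes. Etv4 was at 5.88, 4.10 and 4.09 CPM in WT, 1.99, 2.28 and 2.05 CPM in KD, and 8.73, 9.32 and 9.38 CPM in OE. The groups were far apart, with a log2 fold change of -1.15 ± 0.18 in KD (2.22-fold lower; adjusted p = 1.85e-05) and 0.97 ± 0.18 in OE (1.96-fold higher; adjusted p = 1.15e-05), both by edgeR's quasi-likelihood test. Both calls were kept under 19 of 19 alternatives. Etv5, its close relative, was at 1.66, 1.81 and 2.06 CPM in WT, 1.51, 1.33 and 1.74 CPM in KD, and 1.79, 2.20 and 2.07 CPM in OE. It leaned the same way with overlapping ranges and no call, at -0.27 ± 0.14 in KD and 0.13 ± 0.12 in OE (adjusted p = 0.407 and 0.673). Per kilobase, Etv4 made up 76.6% ± 5.18 of the pair in WT, 64.6% ± 4.38 for KD and 85.7% ± 0.86 for OE.

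The 4 FOS genes, which pair with JUN proteins to form AP-1, split into different patterns. Fosl1 (FRA-1), a lasting product of sustained ERK signalling, was at 2.42, 2.20 and 2.08 CPM in WT, 1.61, 1.15 and 1.76 CPM in KD, and 6.45, 6.56 and 6.09 CPM in OE. The OE libraries stood well above the rest and the KD libraries a little below WT, with no overlap. In OE its log2 fold change was 1.51 ± 0.07 (2.85-fold higher; adjusted p = 1.84e-07) and -0.55 ± 0.19 in KD (adjusted p = 0.0303), by edgeR's quasi-likelihood test. The KD call was lost under 6 of 19 alternatives. Fosl1 overlaps Ccdc85b on the opposite strand over 2767 bases, so reads of one may have been counted for the other. Ccdc85b averaged 50.6, 44.6 and 59.0 CPM in WT, KD and OE, changes of -0.18 and 0.23 on the log2 scale.

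Fosl2 (FRA-2) took the opposite course at a high level: 177, 186 and 179 CPM in WT, 217, 211 and 215 CPM in KD, and 161, 163 and 152 CPM in OE. The 3 groups did not overlap, with a log2 fold change of 0.25 ± 0.02 in KD and -0.19 ± 0.04 in OE (adjusted p = 0.000153 and 0.00104, edgeR's quasi-likelihood test). Fosb was at 2.42, 1.61 and 3.67 CPM in WT, 0.655, 0.829 and 0.880 CPM in KD, and 1.41, 1.70 and 1.36 CPM in OE. KD lay below both other groups, and OE overlapped the lowest WT library. Its log2 fold change was -1.69 ± 0.36 in KD (3.24-fold lower; adjusted p = 0.000138) and -0.78 ± 0.35 in OE (adjusted p = 0.0232), by the same test, and 4 of 19 alternatives did not keep the OE call.

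Fos, the classical immediate-early gene, was at 12.1, 20.3 and 14.3 CPM in WT, 5.80, 7.81 and 6.98 CPM in KD, and 8.03, 13.4 and 5.69 CPM in OE. Every KD library was below every WT library, and OE overlapped both. The log2 fold change in KD, -1.19 ± 0.25, was similar in size to those called for Egr1 and Ier2 but had an adjusted p of 0.0549 by edgeR's quasi-likelihood test, and 7 of 19 alternatives did call it. The OE value was -0.78 ± 0.42 (adjusted p = 0.126 by the same test). It was called without OE replicate 2, the highest OE library for Fos, or with the replicate number as a block. Per kilobase, Fosl2 made up 69.9% ± 3.69 of the summed FOS family in WT, 85.4% ± 1.37 for KD and 69.7% ± 4.64 for OE. The share of Fosl1 was 4.13% ± 0.56, 2.86% ± 0.58 and 13.3% ± 0.84, and that of Fos 24.4% ± 4.62, 11.2% ± 1.66 and 16% ± 5.45. The summed FOS level itself was 26.8 ± 2.14, 25.9 ± 0.25 and 23.6 ± 2.34 CPM per kilobase, with overlapping ranges.

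All 3 JUN genes were called lower in KD than in WT, and all 3 higher in OE than in KD. Jun was at 39.9, 48.9 and 45.3 CPM in WT, 29.7, 32.8 and 31.5 CPM in KD, and 43.6, 44.9 and 42.7 CPM in OE. The KD libraries were the lowest and OE lay inside the WT range, with a log2 fold change of -0.52 ± 0.09 in KD (adjusted p = 1.06e-05) and -0.03 ± 0.09 in OE (adjusted p = 0.737), by edgeR's quasi-likelihood test. Genes near Jun on chromosome 4 were high in OE, with a window median of 0.27 against WT and 0.48 against KD. After subtracting window medians Jun stood at -0.34 in OE against WT (adjusted p = 0.000203) and at 0.05 against KD (adjusted p = 0.6), so that both readings of Jun in OE depend on this step.

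Junb, the most abundant JUN gene in CPM, was at 80.6, 82.8 and 83.7 CPM in WT, 61.0, 63.9 and 65.3 CPM in KD, and 72.7, 88.1 and 69.3 CPM in OE. KD was lowest without overlap, and OE scattered around WT with replicate 2 at the top. Its log2 fold change in KD was -0.38 ± 0.03 (adjusted p = 0.000697 by edgeR). Its call between OE and KD was lost in a fit of those 2 groups alone (adjusted p = 0.102). Jund, often described as the steadiest JUN gene, was at 61.5 ± 0.70 CPM in WT, 55.2 ± 1.5 in KD and 71.5 ± 1.09 in OE. Its changes of -0.16 ± 0.02 and 0.22 ± 0.02 were called (adjusted p = 0.0195 and 0.000798), and both calls were lost with scaling by library totals. The KD call of Jund was lost under 5 of 19 alternatives in all, among them leaving out KD replicate 1 or KD replicate 2 and subtracting window medians (highest adjusted p = 0.201). The 3 JUN genes each overlap a locus on the opposite strand, over 689 bases for Jun (Junos), 351 for Junb (Prdx2) and 919 for Jund (Gm11175). Reads of one may have been counted for the other. Prdx2 averaged 139, 124 and 128 CPM in WT, KD and OE, changes of -0.16 and -0.11 on the log2 scale. Junos averaged 0.21, 0.12 and 0.27 CPM. Per kilobase, the summed JUN level was 86.7 ± 2.34, 70.5 ± 2.19 and 89.9 ± 4.25 CPM in WT, KD and OE.

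Egr1, a zinc finger factor and one of the fastest genes of the response, was at 33.2, 50.0 and 41.5 CPM in WT, 14.5, 16.7 and 16.8 CPM in KD, and 28.6, 40.8 and 24.5 CPM in OE. The KD libraries lay well below all others, and OE overlapped WT. The log2 fold change was -1.38 ± 0.18 in KD (2.61-fold lower; adjusted p = 0.006), -0.41 ± 0.28 in OE (adjusted p = 0.208) and 0.97 ± 0.23 between OE and KD (adjusted p = 0.0143), by edgeR's quasi-likelihood test. The call between OE and KD was lost without KD replicate 1 (adjusted p = 0.0551). Egr2 and Egr3 were under 1 CPM in every library. Egr2 was called lower in KD (-1.65 ± 0.44, adjusted p = 0.0435), a call that 7 of the 18 alternatives that tested it did not keep, and Egr3 had a similar value without a call (-1.35 ± 0.37, adjusted p = 0.0801).

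Ier2, a small nuclear protein of the early response, followed Egr1 closely in KD. It was at 36.4, 44.7 and 40.5 CPM in WT, 17.4, 20.3 and 21.2 CPM in KD, and 37.4, 48.3 and 36.7 CPM in OE. KD was lowest without overlap, and the OE and WT ranges overlapped. The log2 fold change was -1.05 ± 0.12 in KD (2.07-fold lower; adjusted p = 4.92e-05), 0.01 ± 0.15 in OE (adjusted p = 0.974) and 1.06 ± 0.15 between OE and KD (adjusted p = 1.15e-05), by edgeR's quasi-likelihood test. All called values were kept under 19 of 19 alternatives.

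Atf3, a stress-induced member of the ATF family, behaved differently. It was at 3.61, 2.64 and 2.15 CPM in WT, 1.93, 2.84 and 2.03 CPM in KD, and 5.15, 4.58 and 4.87 CPM in OE. Only OE stood apart, above all other libraries, with a log2 fold change of 0.81 ± 0.22 against WT (1.75-fold higher; adjusted p = 0.00167) and -0.31 ± 0.28 in KD (adjusted p = 0.312), by edgeR's quasi-likelihood test. Ier3, the member with the highest level per kilobase in every group, was at 74.5 ± 3.68 CPM in WT, 80.3 ± 0.81 in KD and 89.5 ± 4.15 in OE, and was called in OE (0.26 ± 0.06, adjusted p = 0.000215). Myc was at 78.0, 82.1 and 83.8 CPM in WT, 94.2, 91.1 and 96.5 CPM in KD, and 94.8, 99.3 and 86.2 CPM in OE. Its KD and OE libraries lay above all WT libraries, by 0.21 ± 0.04 and 0.20 ± 0.07 (adjusted p = 0.00613 and 0.0045), and scaling by library totals lost both calls.

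**Figure D3:**
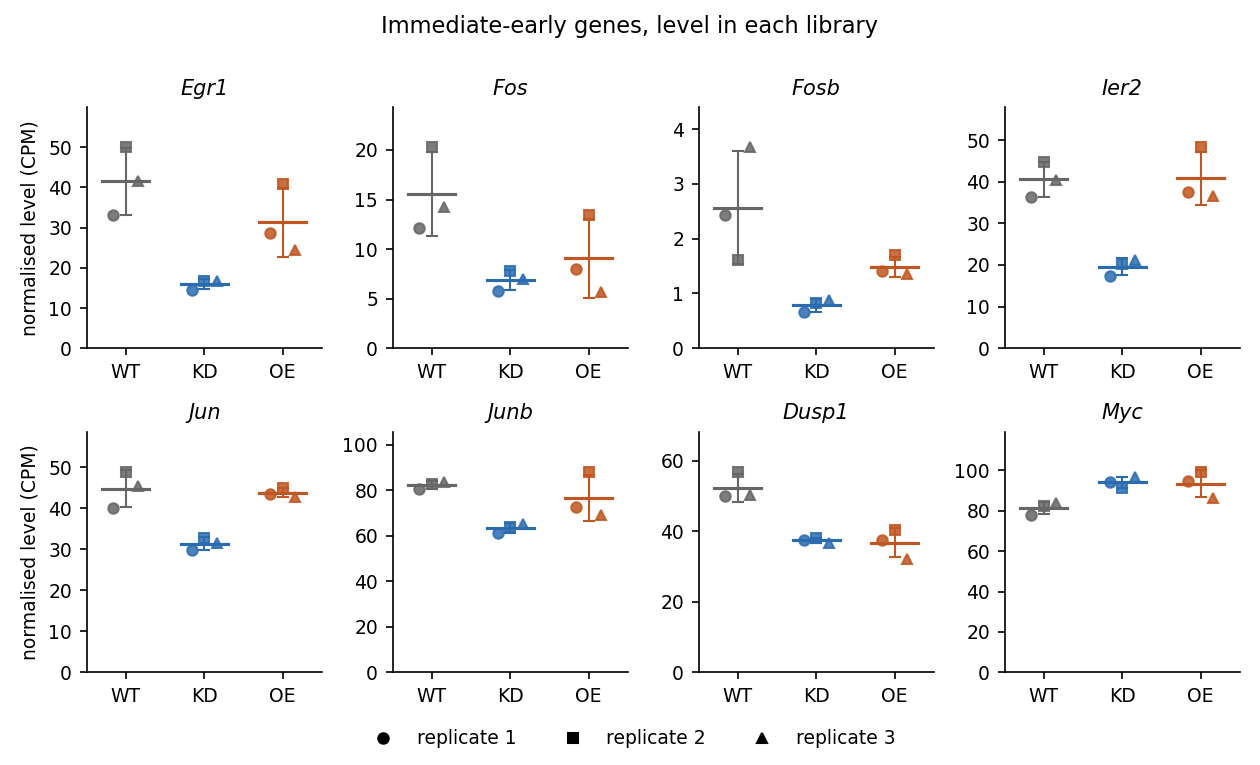
Level in CPM (y axis) in each library of WT, KD and OE (x axis) for 8 immediate-early genes; symbols give the replicate, horizontal lines the mean and bars the SD over 3 libraries. KD lies lowest without overlap for Egr1, Fosb, Ier2, Jun and Junb, and OE replicate 2 (square) is the highest OE library in each of the 8 panels.

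In OE, and in part in WT, the fast genes also tended to be highest in the same library. Among 9 of them (Fos, Fosb, Egr1, Egr2, Egr3, Ier2, Jun, Junb and Dusp1), OE replicate 2 was the highest OE library for 9 of 9, and WT replicate 2 was the highest WT library for 6 of 9. Within KD the highest library was replicate 2 for 4 genes, replicate 3 for 4 and replicate 1 for 1. The median coefficient of variation of the 6 more abundant ones (Fos, Egr1, Ier2, Jun, Junb and Dusp1) was 10.2%, 6.48% and 14.5% in WT, KD and OE. Over the 10280 tested genes that averaged 5 CPM or more it was 6.28%, 3.49% and 3.74%. These 9 genes were singled out after their values were seen, and the share of all genes highest in OE replicate 2 is not given here. Without OE replicate 2, Fos, Egr1, Egr2 and Junb became called lower in OE than in WT. As it was the highest OE library for each, leaving it out could only lower the OE mean. These calls are therefore not a separate result. With all libraries kept, a fit with the replicate number as a block also called Fos, Egr1 and Egr2 lower in OE than in WT. Egr2 was called as well by limma-voom or without the filter on low counts. What set OE replicate 2 apart was not tested.

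Ranked by level per kilobase of exon, the order of the members was led in WT by Ier3 (65.9 CPM per kilobase), Jund (36.9), Junb (35.8), Myc (29.9) and Ier2 (26.6). Ier2 fell from rank 5 in WT to rank 10 in KD, and Egr1 from rank 14 to rank 19. Dusp9 stood at rank 37 in WT, 42 in KD and 22 in OE, Fosl1 at 33, 33 and 23, and Etv4 at 29, 35 and 24. Among the 10 catalytically active MAPK phosphatases, Dusp1 and Dusp5 made up 27.4% ± 0.78 and 31.6% ± 1.05 of the summed level in WT. In OE, Dusp9 reached 5.92% ± 0.24, from 1.12% ± 0.11 in WT, and Dusp1 fell to 19.7% ± 1.56. The summed level of the 10 was 57.7 ± 2.69 CPM per kilobase in WT, 52.0 ± 1.12 in KD and 56.4 ± 2.35 in OE.

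Genes upstream and beside the members were read from lists of the same fit. Over all genes tested, 21.3% were called in KD (11.0% higher and 10.4% lower), 36.4% in OE (17.0% and 19.5%) and 41.5% between OE and KD, and the counts below are to be read beside these shares. Of 28 genes of the ERK cascade from receptor to RSK kinase, 9 were called higher and 4 lower in KD (46.4% in all), 8 higher and 8 lower in OE (57.1%), and 4 higher and 12 lower in OE against KD (57.1%). Fgfr1, a fibroblast growth factor receptor at the head of this cascade, was at 10.2, 12.6 and 15.0 CPM in WT, 4.43, 3.51 and 4.81 CPM in KD, and 52.5, 49.6 and 49.3 CPM in OE. The groups were far apart, with a log2 fold change of -1.56 ± 0.21 in KD and 2.0 ± 0.16 in OE (adjusted p = 5.19e-07 and 1.15e-09, edgeR's quasi-likelihood test). Rps6ka1, encoding the ERK-activated kinase RSK1, was at 65.6 ± 1.62 CPM in WT, 42.5 ± 1.47 in KD and 92.3 ± 2.83 in OE. Neighbouring genes on chromosome 4 had a window median of -0.18 in KD and 0.35 in OE. After subtracting window medians, the log2 fold change of Rps6ka1 was -0.44 in KD and 0.16 in OE, in place of -0.62 and 0.49.

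Of 24 tested genes of the JNK, p38 and ERK5 cascades, 3 were called higher and 6 lower in KD (37.5% in all), and 4 higher and 6 lower in OE (41.7%). Map3k5, the stress-activated kinase ASK1, was lower in OE (log2 fold change -0.66 ± 0.06), and Mknk1, a kinase activated by ERK and p38, fell in KD and rose in OE (-0.29 ± 0.05 and 0.43 ± 0.07). Both calls of Mknk1 were lost after subtracting window medians, which were -0.14 in KD and 0.36 in OE and left changes of -0.14 and 0.10 (adjusted p = 0.181 and 0.3 by edgeR). Of 9 genes for serum response factor, its partners and coactivators, 1 was called lower in KD (11.1%), and 4 were called higher and 2 lower in OE (66.7%). Elk3, a ternary complex factor, was at 27.9 ± 1.47 CPM in WT, 24.2 ± 0.27 in KD and 33.8 ± 2.49 in OE, and Mrtfa was lower in OE (-0.28 ± 0.04). The KD call was that of Elk3 and was lost under 6 of 19 alternatives. Among 14 tested AP-1 and ATF partners, 7 were called higher and 0 lower in KD (50% in all), with 8 at an unadjusted p under 0.05. Creb3 rose by 0.41 ± 0.04 in KD, and Maf fell by 0.58 on the log2 scale in OE. In the MYC network of 11 genes, 1 was called higher and 2 lower in KD (27.3%), and 3 higher and 3 lower in OE (54.5%). Mycl fell in KD and rose in OE (-1.59 ± 0.10 and 1.22 ± 0.14), as did Mxi1 (-0.27 ± 0.04 and 0.44 ± 0.03). Subtracting window medians left Mycl at -1.41 in KD and 0.89 in OE.

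Of 22 further immediate-early genes tested, 4 were called higher and 11 lower in KD (68.2% in all, beside 21.3% of all genes), 8 higher and 11 lower in OE (86.4%, beside 36.4%), and 12 higher and 7 lower in OE against KD (86.4%, beside 41.5%). Their median log2 fold change was -0.21, -0.30 and 0.28. Klf6 showed the order of Dusp8 and Fosl2, at 86.6 ± 9.40 CPM in WT, 119 ± 2.29 in KD and 68.8 ± 2.39 in OE. Ccn2, a matricellular protein gene also driven by YAP, was at 154 ± 11.7, 178 ± 9.28 and 84.0 ± 6.12 CPM. Of 19 tested genes listed as other ERK targets, 7 were called higher and 4 lower in KD (57.9%) and 7 higher and 4 lower in OE (57.9%). Hmga1, a chromatin protein gene, had the order of Dusp9 (24.2 ± 1.98, 15.5 ± 0.89 and 55.1 ± 3.66 CPM in WT, KD and OE), and Peak1 the opposite order (149 ± 14.1, 190 ± 5.19 and 96.0 ± 3.96 CPM). For Peak1, subtracting the window median in OE (-0.41) took the change from -0.63 to -0.21. Of 10 heat shock genes, 6 were called higher and 3 lower in KD (90% in all) and 6 higher and 1 lower in OE (70%). Hspb1 fell in KD and rose in OE (-0.68 ± 0.12 and 1.08 ± 0.02), and Hspd1 was higher in both (0.29 ± 0.05 and 0.43 ± 0.05). Subtracting window medians left Hspd1 at 0.12 in KD.

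**Figure D4:**
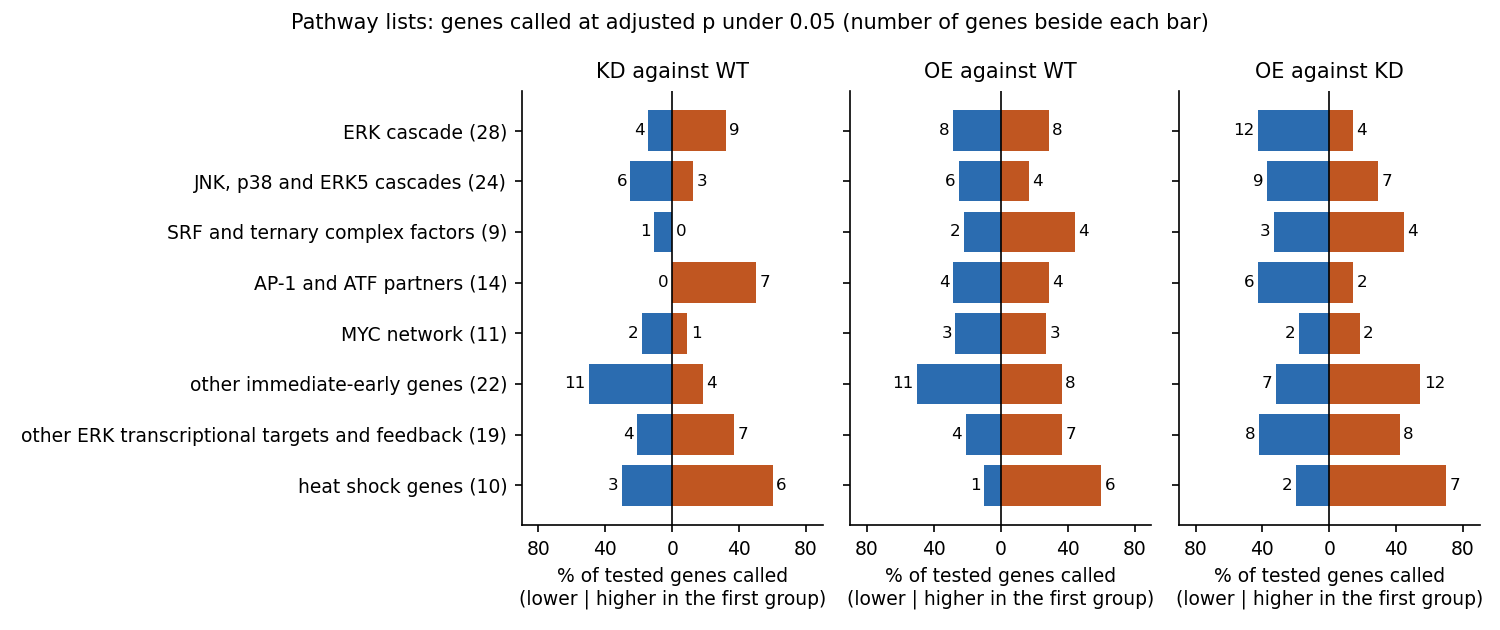
Share of the tested genes of each list (y axis, number tested in brackets) called lower (blue, left) or higher (orange, right) in each of the 3 comparisons (x axis, percent), with the number of genes beside each bar. The other immediate-early genes give 11 lower and 4 higher calls in KD, and the AP-1 and ATF partners 0 lower and 7 higher.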

How the data were processed

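The authors deposited raw whole-number counts per Ensembl gene for the 9 libraries, not normalised, as judged from the values. GRCm38 and mm10 are named in the submitters' processing notes; the aligner, the counting program and the use of strand are not given in the sources used here. The table's 55774 rows held 168 genes on 455 repeated rows with identical counts, each counted once, which left 55487 genes. Every library column matched 1 sample by name. Ribosomal RNA genes took 7.44% to 18.21% of the counts.

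Genes were filtered with filterByExpr (16955 kept), scaled with TMM and fitted with edgeR 4.0.16 in R 4.3.3 (quasi-likelihood test, robust, group as the only term, all 9 libraries), with Benjamini-Hochberg adjustment over all genes tested; calls needed an adjusted p under 0.05. With 3 libraries a group, a two-sided exact permutation test has a smallest p of 0.1 and was not used. The SE of a log2 fold change combines both groups' SDs of log2 CPM, computed with a prior count of 2. Exon lengths and gene positions are from GENCODE M21, and window medians are over genes in 20 Mb. Alternatives used DESeq2 1.42.0 and limma 3.58.1. Tables and plots used Python 3.11.15, pandas 2.3.3 and matplotlib 3.10.9.

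The members and lists were chosen with earlier results of these data known. Values in every library are given for members called with an absolute log2 fold change of 0.58 or more that averaged 1 CPM or more in some group, and others were added where a result turned on them. The most abundant member of each family, and the 2 genes of each pathway list with the smallest p for any difference among groups, are also named. The fit was tested on simulated counts for OE against WT over 16440 genes: it called 75 of 98 genes changed 2-fold, 57 of 94 changed by 0.5 on the log2 scale and 14 of 16248 unchanged genes. Libraries of a group differed by more than sampling noise, so none was counted as a repeat of another.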

Additional observations from a re-analysis of the deposited data

How the results depend on the processing

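A minimum fold change of 1.5 as the null hypothesis left 4 members called between KD and WT, 3 between OE and WT and 5 between OE and KD. All other settings kept the 3 counts within 1.5 times. Leaving out 1 library in turn gave 15 to 23, 14 to 21 and 19 to 26 members called; the OE calls split into 12 higher and 4 lower without OE replicate 1, 10 and 11 without OE replicate 2, and 11 and 3 without OE replicate 3. With the replicate number as a block, 22, 23 and 24 members were called. Fos, Egr1 and Egr2 were then among those lower in OE than in WT. Over all genes tested, deviations of same-numbered libraries were correlated between -0.042 and 0.049. Such a correlation cannot say whether same-numbered libraries share an effect on a few genes. Over the up to 19 alternatives that tested a gene, other than the minimum fold change, 13 of 21 KD calls, 10 of 20 OE calls and 17 of 25 calls between OE and KD were kept in all, and 0 called values reversed. After subtracting window medians, Dusp18 went from -0.01 to 0.49 in OE against WT (adjusted p = 0.00476, edgeR); genes around it had a median of -0.52. Scaling by library totals left 885 of 2473 calls over all genes higher in KD, beside 1859 of 3617 with TMM, and 1623 of 5129 in OE against WT, beside 2874 of 6174; among the members it gave 4 higher and 13 lower in KD and 8 and 8 in OE. Upper-quartile factors gave 4288 higher of 7439 in OE against KD, beside 3291 of 7031. In the simulated counts, 57 of 94 changes of 0.5 on the log2 scale were called, so small changes may be missed. Far fewer genes were changed in them than were called here, which makes the adjustment stricter. The rate was also not split by level, so it gives no figure for the members.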
